A study of Mus musculus with 6 samples.

Results

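Heat shock proteins of the cytosol and the mitochondrion were followed in mouse regulatory T cells (Tregs) with and without the transcriptional repressor BACH2. The 10 genes were chosen by name, as rows of the deposited expression table: Hspa8, Hspa1a, Hspa1b, Hsph1 and Dnajb1 of the cytosolic HSP70 system, Hsp90aa1 and Hsp90ab1 of the cytosolic HSP90 system, Hspd1 and Hspe1 of the mitochondrial chaperonin, and Hsf1, the gene of the main heat shock transcription factor. They are 10 of the 49585 genes in the table, and each name matched 1 row. Of the 10, 9 had at least 1 FPKM in at least 3 libraries and were tested, the exception being Hspa1a. FPKM is the number of fragments per kilobase of gene and scaled to the library's total of fragments.

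The samples were Bach2-cKO Tregs (3 libraries) and WT Tregs (3 libraries), taken from the spleen of 7-week-old C57BL/6 animals. In both groups, the sort kept YFP-positive, B220-negative cells with CD4 and CD25, and were cultured for 24 hours on antibodies against CD3 and CD28 before poly(A) RNA was taken. Every library therefore comes from activated cells that went through a sort and a culture, and no resting cells were measured. The labels name neither the promoter that drives YFP and the deletion nor the exons removed, and they do not say whether the 3 libraries of a group came from different mice, so the p-values cover no more than the spread among these libraries, part of which could be technical.

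Read totals recovered from the FPKM steps were 27703735 to 31976067 in the Bach2-cKO libraries and 27697735 to 43884431 in the WT libraries. Bach2 itself did not differ (88.9, 104.5 and 120.8 FPKM in Bach2-cKO, against 112.0, 111.4 and 99.4 FPKM in WT; limma adjusted p = 0.812), but a value summed over all exons does not check a deletion of some of them, so the groups rest on the labels. Foxp3, which defines Tregs, was at 104.2 to 153.5 FPKM in Bach2-cKO and 107.6 to 127.3 FPKM in WT, and the summed FPKM of 10 Treg markers was 2365 to 2759 and 2292 to 2681. Within that list Il2ra was called higher and Ikzf4, Cd3d and Cd3g lower, and the median log2 fold change was -0.23. Markers of other cells were present in both groups. The summed FPKM of 10 B cell markers was 1542 to 1969 in Bach2-cKO and 1110 to 1575 in WT, that of 6 plasma cell markers 203.0 to 281.9 and 101.2 to 119.2, and that of 6 CD8 T cell markers 124.3 to 204.7 and 73.1 to 86.2, and none of these markers was at 0 in all libraries. Summed erythroid markers varied most between libraries, at 204.3 to 1034 FPKM in Bach2-cKO and 182.1 to 517.0 FPKM in WT. In RNA from a sorted population, a change in the number of cells of a type and a change in RNA per cell cannot be told apart.

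HSP70 proteins bind unfolded stretches of other proteins and release them on an ATP cycle, J-domain proteins such as DNAJB1 start that cycle, and HSP110 proteins such as HSPH1 reset it by exchanging the nucleotide. HSP90 acts later, on nearly folded clients that include steroid receptors and kinases, among them kinases of T cell signalling. HSP60 and HSP10, the products of Hspd1 and Hspe1, form a barrel with a lid in which imported mitochondrial proteins fold. HSF1 is held inactive by chaperones in unstressed cells, and when unfolded proteins draw these away it forms trimers that bind inverted repeats of GAA, called heat shock elements, in front of chaperone genes. Hspa1a, Hspa1b, Hsp90aa1, Dnajb1 and Hsph1 are classical inducible genes of that response, whereas Hspa8 and Hsp90ab1 are expressed constitutively.

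Short repeats of the kind that HSF1 binds were looked for in front of these genes. RefSeq promoter windows (GRCm38.p6) were at hand for 6 of the 10 genes, in 9 windows, and the 250 bases before each start site were searched for GAANNTTC and TTCNNGAA, the arrangements in which a pair of units can face each other. Each of these words is its own reverse complement, so either strand gives the same match, and neighbouring matches can share a unit. Such a pair stood in a window of 5 of the 6 genes, and in 12.8% of all 32851 windows of that length. The first count is by gene and the second by window, and Dnajb1, Hsph1 and Hspd1 had 2 windows each. The 5 genes are not independent, since the windows of Hspa1a and Hspa1b are near copies. A longer run of 3 units, GAANNTTC followed after any 2 bases by GAA and searched on both strands, was in windows of Hspd1 and Hspe1 and in 0.466% of all windows. Hspd1 and Hspe1 lie head to head and share these matches. A run of units stands 89 bases before the start of Hspe1. On the opposite strand it stands 144 bases before the second annotated start of Hspd1. The run lies within the annotated span of Hspd1, and the window of the first Hspd1 start held no match. It is printed in capitals, from chr1:55088053-55088082 on the plus strand. The pair before Hsph1 lies 33 and 54 bases before its RefSeq starts, but within the annotated span of the gene (chr5:149614287-149636376). It is shown from chr5:149636351-149636380 on the minus strand.
Hspe1: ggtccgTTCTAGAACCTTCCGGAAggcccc
Hsph1: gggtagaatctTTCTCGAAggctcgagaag

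Hspa1a and Hspa1b are shown in full because their windows are near copies, as their coding sequences are. Both lie on the minus strand of chromosome 17, with windows at chr17:34972157-34972406 and chr17:34959239-34959488 (GRCm38.p6), and both hold a GAANNTTC pair, in capitals, 104 bases before the start. Counted from 1 at the 5′ end, with the Hspa1a base first, the windows differ at 3 of 250 bases, C44T, T47C and T249G.
Hspa1a: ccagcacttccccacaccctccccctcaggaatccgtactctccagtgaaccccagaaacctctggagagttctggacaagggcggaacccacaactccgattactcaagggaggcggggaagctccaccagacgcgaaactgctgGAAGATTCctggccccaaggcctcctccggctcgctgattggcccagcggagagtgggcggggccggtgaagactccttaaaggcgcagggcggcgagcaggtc
Hspa1b: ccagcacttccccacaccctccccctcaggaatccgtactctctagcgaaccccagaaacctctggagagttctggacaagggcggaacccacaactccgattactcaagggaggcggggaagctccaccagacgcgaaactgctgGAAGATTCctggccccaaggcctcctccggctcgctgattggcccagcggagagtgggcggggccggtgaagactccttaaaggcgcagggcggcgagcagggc
Neither Dnajb1 window held the pair. The sites that BACH2 binds with small MAF proteins were searched on both strands as TGAGTCA, and as TGC followed directly by TGAGTCA, the MAF recognition element, which contains the shorter word. Neither stood in a window of these 6 genes, and they were in 4.46% and 0.134% of all windows. A match or its absence in these windows says nothing of binding in these cells. Hspa8, Hsp90aa1, Hsp90ab1 and Hsf1 were not searched.

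The 10 genes spanned more than 3 orders of magnitude in FPKM, and the order of the group means was the same in Bach2-cKO and WT. Hsp90ab1 was highest, at 2551 ± 126.7 FPKM in Bach2-cKO and 2146 ± 87.2 FPKM in WT (SD, n = 3 each), and 11 of all 49585 genes had a higher mean. Hspa8 followed at 1266 ± 75.6 and 1165 ± 87.7 FPKM. These 2 constitutive genes made up 81.6% to 83.7% of the summed FPKM of the 10 in Bach2-cKO libraries and 81.0% to 81.9% in WT libraries. At the other end stood the inducible Hspa1b and Hspa1a, near 1 FPKM. In between, Hspe1 and Hspd1 were neighbours whose libraries overlapped in both groups.

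**Figure D1:**
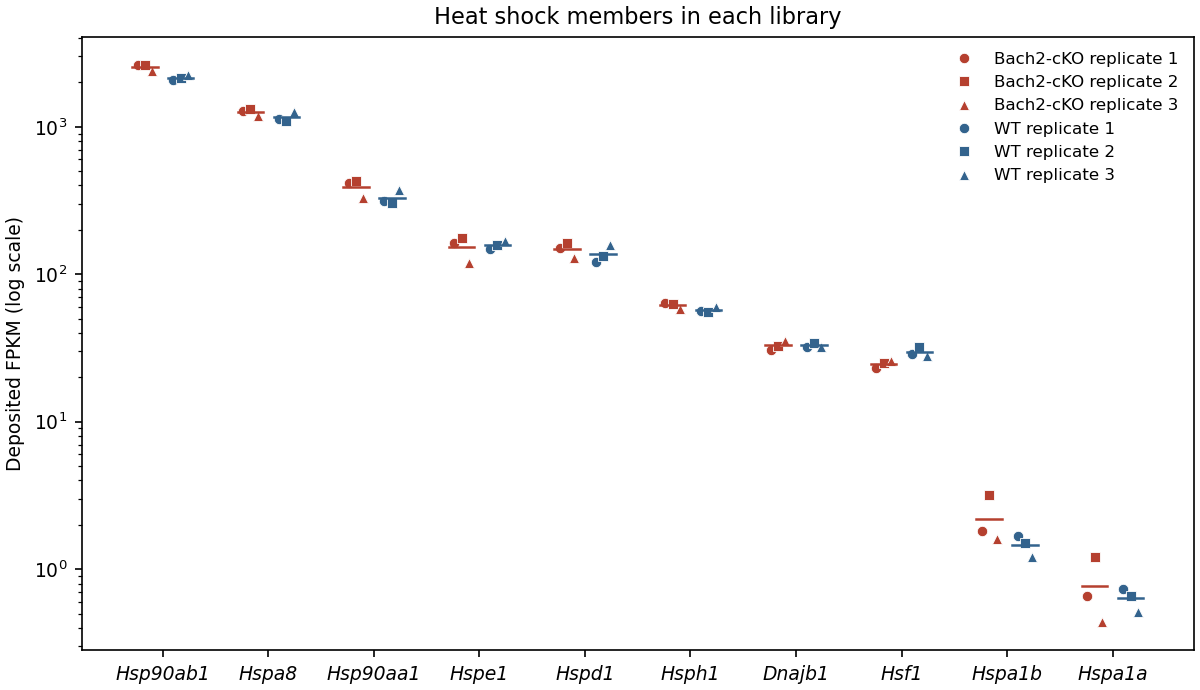
Deposited FPKM on a log scale for the 10 genes in each library, with Bach2-cKO in red to the left of WT in blue and a bar at each group mean (n = 3). Mean levels run from 2551 FPKM in Bach2-cKO and 2146 FPKM in WT for Hsp90ab1 to below 1 FPKM for Hspa1a. The red and blue points overlap for every gene except Hsp90ab1 and Hsf1, and 35.6% of all genes tested do not overlap between groups.

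Levels between genes depend on the length by which reads were divided. For 9 of the 10 genes, the exception being Hsf1, the deposited FPKM uses the mean length of all annotated transcripts, which include short partial ones. For Hsp90ab1 that length is 881 bases, against 2520 bases for its longest protein-coding transcript. Per kilobase of the longest coding transcript, the WT means were 750.4 for Hsp90ab1, 598.6 for Hspa8, 177.3 for Hspe1, 119.2 for Hsp90aa1, 72.3 for Hspd1, 32.2 for Dnajb1, 29.3 for Hsph1 and 28.5 for Hsf1, each on the scale of FPKM. Hspe1 then stood above Hsp90aa1 in every WT library (166.5 to 189.3 against 109.8 to 134.1), while in deposited FPKM it stood below. Hsph1 and Hsf1 overlapped across the WT libraries on this scale (28.5 to 30.7 and 26.8 to 30.9). A gene's difference between groups is not touched by the length, which is the same in all libraries.

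**Figure D2:**
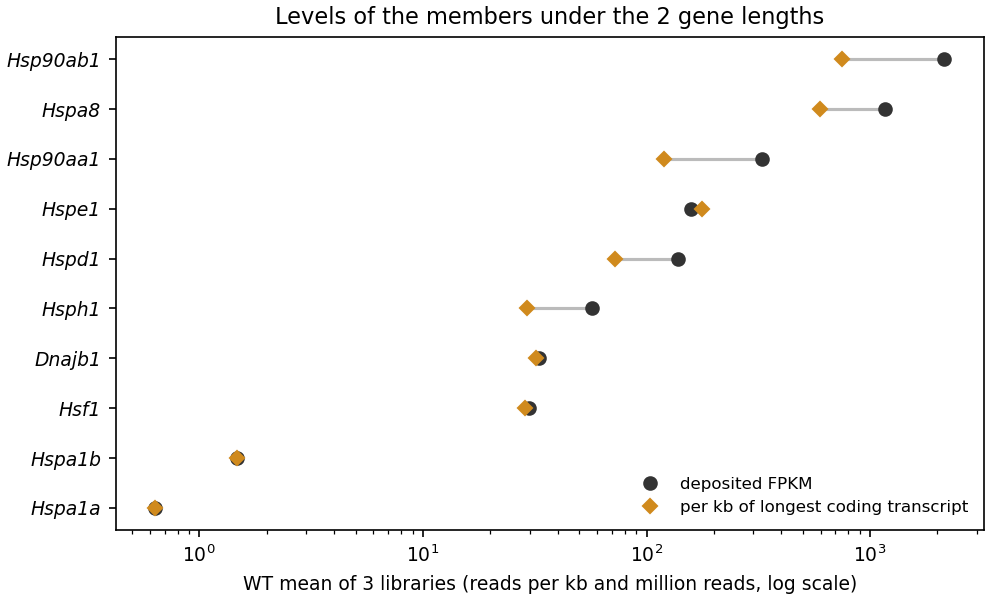
WT mean of 3 libraries for each gene, on a log axis in reads per kilobase scaled to the library total, as deposited (black circles) and per kilobase of the longest coding transcript (orange diamonds). Hsp90ab1 moves from 2146 to 750.4 and Hsp90aa1 from 329.8 to 119.2, whereas Hspa1a and Hspa1b, with 1 annotated transcript each, stay in place.

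None of the 9 tested genes differed between Bach2-cKO and WT at a limma adjusted p under 0.05, in either direction. Across all 13766 genes tested, 7.02% were called higher and 8.31% lower. At an unadjusted p under 0.05 in limma there were 2 of the 9, Hsp90ab1 and Hsf1, against 30.8% of all genes tested. By limma-voom on recovered reads those 2 genes were called, Hsp90ab1 higher and Hsf1 lower, where that test called 18.3% of all genes, 8.47% higher and 9.79% lower. The fitted log2 fold changes were positive for 6 genes and negative for 3, with a median of 0.11, against -0.017 over all genes tested. Their size had a median of 0.12, against 0.17 over all genes tested.

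**Figure D3:**
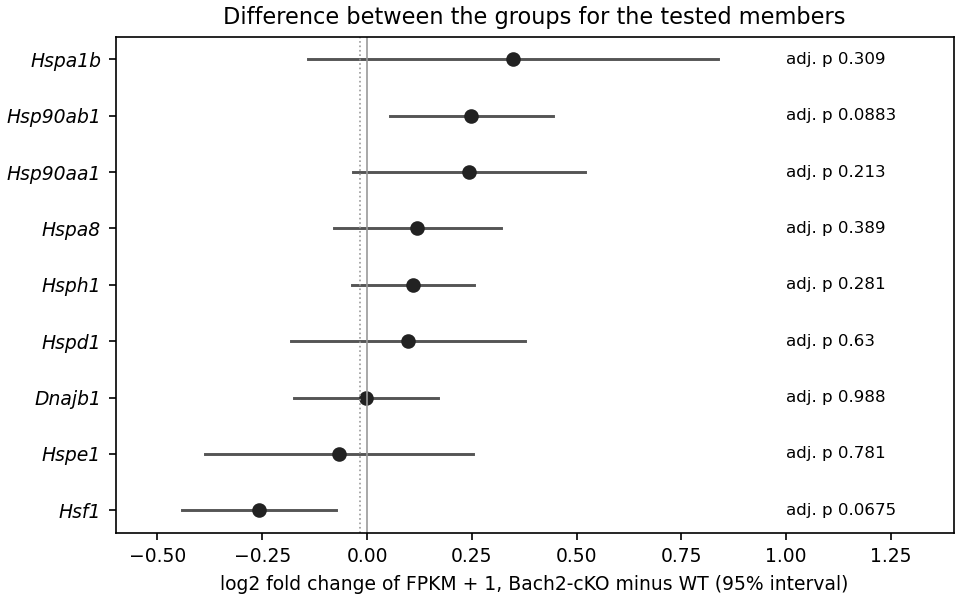
Log2 fold change of FPKM + 1, Bach2-cKO minus WT, for the 9 tested genes with the 95% interval of the limma fit (n = 3 each), a solid line at 0 and a dotted line at the median of all genes tested (-0.017). The intervals of Hsp90ab1 and Hsf1 leave out 0, and no adjusted p is under 0.05.

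The cytosolic HSP70 system did not differ beyond the spread between libraries. Hspa8, the constitutive HSP70 of the cytosol (chr9:40800984-40810087), had 1285, 1329 and 1182 FPKM in Bach2-cKO and 1129, 1101 and 1265 FPKM in WT. The third WT library lay above the lowest Bach2-cKO library, and the log2 fold change was 0.12 (SE 0.086, 95% interval -0.08 to 0.32, limma adjusted p = 0.389). That interval leaves room for a difference of up to 0.32 on the log2 scale. Hsph1, the HSP110 exchange factor (chr5:149614287-149636376), had 63.7, 63.0 and 58.5 FPKM in Bach2-cKO and 55.9, 55.6 and 59.9 FPKM in WT (log2 fold change 0.11, SE 0.062, limma adjusted p = 0.281). The third WT library lay above the third Bach2-cKO library, and the groups overlapped. Dnajb1, the J-domain partner (chr8:83608193-83612653), had 30.7, 32.6 and 35.5 FPKM in Bach2-cKO and 32.4, 34.4 and 32.1 FPKM in WT. Its means, 32.9 ± 2.43 FPKM in Bach2-cKO and 32.95 ± 1.26 FPKM in WT (SD, n = 3 each), gave a log2 fold change of -0.0023 with a 95% interval of -0.17 to 0.17 and a limma adjusted p = 0.988. Dnajb1 was thus the member for which the fit was nearest to 0, and its sign turned with median-ratio scaling (0.023).

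The inducible HSP70 genes were expressed at a trace of the constitutive one. Hspa1b (chr17:34956436-34959238) had 1.82, 3.20 and 1.59 FPKM in Bach2-cKO and 1.69, 1.501 and 1.21 FPKM in WT. The second Bach2-cKO library stood above the other five, and the remaining values overlapped (log2 fold change 0.35, SE 0.21, 95% interval -0.14 to 0.84, limma adjusted p = 0.309). Hspa1a (chr17:34969190-34972156) had 0.657, 1.202 and 0.437 FPKM in Bach2-cKO and 0.737, 0.655 and 0.511 FPKM in WT, with the same library on top, and was too low to be tested. That library, Bach2-cKO replicate 2, also had the highest summed B cell (1969 FPKM) and erythroid (1034 FPKM) markers. With the B cell markers as covariate the log2 fold change of Hspa1b was 0.13 (SE 0.33, limma adjusted p = 0.868), and without Bach2-cKO replicate 2 it was 0.14 (limma adjusted p = 0.705). Summed B cell markers were 1542 to 1969 FPKM in Bach2-cKO and 1110 to 1575 FPKM in WT. The covariate thus ran partly with the groups and cannot be separated from them. The part of the B cell or erythroid markers was not tested. These values rest on 36 to 114 reads for Hspa1a in Bach2-cKO and 42 to 96 in WT, and on 124 to 287 for Hspa1b in Bach2-cKO and 94 to 208 in WT, against 40389 to 52288 for Hspa8 in Bach2-cKO and 41843 to 60939 in WT. The summed Hspa1a and Hspa1b FPKM was 0.0019, 0.0033 and 0.0017 of the Hspa8 FPKM in Bach2-cKO and 0.0022, 0.0020 and 0.0014 in WT, a log2 difference of 0.31 (exact two-sided permutation p = 0.6). That difference was 0.022 without Bach2-cKO replicate 2 and 0.11 without WT replicate 3.

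How reads were split between Hspa1a and Hspa1b is uncertain. Their reading frames, taken from GENCODE M21 transcripts, were 99.4% identical with 8 substitutions, and 68.3% of the 100-base windows of Hspa1a occurred unchanged in Hspa1b. Reads from these stretches fit both genes, and the counting of such reads is not given in the sources used, so the sum of the pair is safer than either value. The other related pairs do not share this limit, since Hspa8 and Hspa1a were 74.1% identical, Hsp90aa1 and Hsp90ab1 75.6%, and neither pair shared a window of 100 bases. Hspa1a is also overlapped on the opposite strand by Gm20481, and Hspa8 holds the small nucleolar RNA genes Snord14c, Snord14d and Snord14e within its span.

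Both cytosolic HSP90 genes had higher means in Bach2-cKO, without passing the test. Hsp90ab1, the constitutive HSP90 (chr17:45567775-45573271), had 2638, 2610 and 2406 FPKM in Bach2-cKO and 2065, 2136 and 2238 FPKM in WT. All Bach2-cKO libraries lay above all WT libraries, as they did for 15.5% of all genes tested. The ratio of means was 1.19, the log2 fold change 0.25 (SE 0.084, 95% interval 0.05 to 0.44), with an unadjusted p = 0.0190 from limma, fitted across all genes, and an adjusted p = 0.0883. Under 2 of 15 alternatives it was called, with an adjusted p of 0.0327 by limma-voom and 0.0476 with a robust variance estimate. Hsp90aa1, the inducible HSP90 (chr12:110690605-110702728), had 416.9, 427.2 and 330.7 FPKM in Bach2-cKO and 314.6, 303.8 and 371.1 FPKM in WT. The first and second Bach2-cKO libraries were the highest of the 6, and the third fell below the third WT library (log2 fold change 0.24, SE 0.12, 95% interval -0.03 to 0.52, limma adjusted p = 0.213). Without Bach2-cKO replicate 3 the log2 fold change of Hsp90aa1 was 0.36, with a limma adjusted p = 0.0436. The ratio of inducible to constitutive HSP90 was 0.158, 0.164 and 0.138 in Bach2-cKO and 0.152, 0.142 and 0.166 in WT, a log2 difference of -0.0051 (exact two-sided permutation p = 1).

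The mitochondrial chaperonin genes lay within the spread between libraries. Hspd1, which encodes the HSP60 barrel (chr1:55077835-55088243), had 150.3, 163.5 and 128.3 FPKM in Bach2-cKO and 121.2, 133.8 and 158.5 FPKM in WT (log2 fold change 0.097, SE 0.12, 95% interval -0.18 to 0.38, limma adjusted p = 0.630). The Hspd1 log2 fold change was lower when Bach2-cKO replicate 2 (0.020) or WT replicate 1 (0.0096) was left out, and higher when replicate 3 of Bach2-cKO (0.19) or of WT (0.20) was left out. Hspe1, which encodes the HSP10 lid (chr1:55088132-55091307), had 162.6, 175.5 and 119.4 FPKM in Bach2-cKO and 148.3, 156.9 and 168.6 FPKM in WT (log2 fold change -0.067, SE 0.14, 95% interval -0.39 to 0.25, limma adjusted p = 0.781). In both genes the third Bach2-cKO library was the lowest of its group and the third WT library the highest. Without Bach2-cKO replicate 3 the log2 fold change of Hspe1 was 0.099, of the opposite sign. The Hspd1 to Hspe1 ratio was 0.925, 0.931 and 1.08 in Bach2-cKO and 0.817, 0.853 and 0.940 in WT, a log2 difference of 0.17 (exact two-sided permutation p = 0.3). The annotated genes overlap by 112 bases on opposite strands, and the use of strand in counting is not given in the sources used. Of 9 pseudogenes named after the pair, Hspd1-ps3 was the highest, at 9.35, 2.20 and 1.51 FPKM in Bach2-cKO and 2.83, 3.14 and 1.95 FPKM in WT, far below Hspd1. Pseudogenes under other names were not looked for.

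Hsf1 had the lowest fitted difference of the 9. This gene (chr15:76477445-76500972) had 23.2, 25.2 and 25.7 FPKM in Bach2-cKO and 29.0, 32.2 and 28.0 FPKM in WT. All Bach2-cKO libraries lay below all WT libraries, as they did for 20.1% of all genes tested. The ratio of means was 0.831, the log2 fold change -0.26 (SE 0.079, 95% interval -0.44 to -0.07), with an unadjusted p = 0.0125 from limma, fitted across all genes, and an adjusted p = 0.0675. By limma-voom the adjusted p was 0.0495, and under no other of the 15 alternatives was Hsf1 called. HSF1 is governed mainly as a protein, by trimer formation and phosphorylation, which these data do not measure.

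Across libraries the 10 genes did not follow the groups alone. Their summed FPKM was 4773, 4831 and 4288 in Bach2-cKO and 3897, 3956 and 4323 in WT, or 0.641% to 0.716% of all FPKM in Bach2-cKO and 0.582% to 0.642% in WT, so that the third library of each group met in the middle. Bach2-cKO replicate 3 was the lowest of its group in 8 of the 10 genes, the exceptions being Dnajb1 and Hsf1, in which it was the highest. Bach2-cKO replicate 2 was the highest of its group in 6. As a mean of standardised levels over the 9 tested genes, the profile was 0.28, 0.86 and -0.31 in Bach2-cKO and -0.61, -0.32 and 0.097 in WT. The 9 genes did not share that profile. Pearson r between pairs of them ran from -0.894 for Hsf1 with Hsp90ab1 to 0.982 for Hsph1 with Hsp90aa1, and was -0.713 for Hspe1 with Dnajb1. Among 10105 other genes with a mean of at least 5 FPKM, those most like this profile were Mrpl47, a mitochondrial ribosomal protein gene, Gm10131, AK010878, Ssr2, a subunit of the ER translocon-associated complex, and Immp1l, a mitochondrial inner membrane peptidase. Their Pearson r with the profile was 0.979 to 0.997 over the 6 libraries, which share depth and group, and is given as a description. Mrpl47 had 7.29, 8.75 and 5.87 FPKM in Bach2-cKO and 5.21, 6.03 and 6.89 FPKM in WT, highest in Bach2-cKO replicate 2 and lowest in WT replicate 1, as in the profile.

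The partners of these chaperones mostly did not differ either. In 7 lists of other cytosolic and mitochondrial chaperones, with 94 genes of which 85 were tested, 2 were called higher and 1 lower, 3.53% of those tested, against 15.3% of all genes called in either direction. Their median log2 fold change was 0.0037. The 3 called became 7 without Bach2-cKO replicate 3. They became 1 when Bach2-cKO replicate 2 or WT replicate 1 was left out, with the replicate number as a block, and in a fit with the mean level of the B cell markers as covariate. Among 21 tested HSP70, HSP110 and J-domain genes 0 were called in limma, with 3 at an unadjusted p under 0.05. Those 3 were the J-domain genes Dnajb4 (log2 fold change -0.31, adjusted p = 0.0656) and Dnajb2 (-0.30, adjusted p = 0.0819), and Hspa13 (0.24, adjusted p = 0.122). Among 9 exchange and partner factors 0 were called in limma, with 2 at an unadjusted p under 0.05, Bag2 at a log2 fold change of 0.39 and the ubiquitin ligase gene Stub1 at -0.18, while Hspbp1 stood at -0.11. The 14 TRiC and prefoldin genes, which fold actin and tubulin, had 0 called in limma and 1 at an unadjusted p under 0.05, with Pfdn5 at -0.23, Cct4 at -0.15 and Vbp1 at 0.16. By limma-voom none of the genes in these 3 lists was called. Small heat shock protein genes were barely expressed, with 3 of 8 tested, Hspb1, Hspb6 and Hspb9, 0 called by limma or limma-voom and 0 at an unadjusted p under 0.05, and Hspb3 listed at 0 in every library. The log2 fold changes of the 3 were 0.17, -0.33 and 0.095.

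Fkbp5 was the clearest difference among the partners. It encodes an HSP90 co-chaperone of steroid receptors and had 43.3, 39.2 and 40.1 FPKM in Bach2-cKO and 22.5, 22.2 and 24.4 FPKM in WT. Each Bach2-cKO library was far above every WT library (log2 fold change 0.80, SE 0.071, limma adjusted p = 0.000736), and Fkbp5 was called under all 15 alternatives. It was the 1 gene called of 17 HSP90 co-chaperone genes, where 15.3% of all genes tested were called in either direction. The same share stands against the mitochondrial and heat shock factor lists below. Next by p in limma were Ttc4 at -0.26 (adjusted p = 0.0802) and Ptges3, the p23 co-chaperone, at 0.20 (adjusted p = 0.104). Fkbp4, its close relative with the same kind of client, had 64.2, 64.2 and 58.9 FPKM in Bach2-cKO and 66.3, 76.7 and 72.4 FPKM in WT (log2 fold change -0.20, limma adjusted p = 0.110), and was named after its values were seen. Hspa9, the HSP70 of the mitochondrial matrix, had 185.3, 210.7 and 183.5 FPKM in Bach2-cKO and 149.3, 149.6 and 162.4 FPKM in WT (log2 fold change 0.33, SE 0.073, limma adjusted p = 0.0245), and was the 1 gene called of 15 mitochondrial chaperones and proteases. In that list Afg3l2 stood at 0.18 and Hscb at -0.15, neither called. Hsf2, a second heat shock factor, had 11.2, 10.2 and 11.2 FPKM in Bach2-cKO and 14.4, 14.2 and 16.01 FPKM in WT (log2 fold change -0.42, SE 0.087, limma adjusted p = 0.0183). Of its list, with 6 of 8 tested, Hdac6 at -0.23 and Vcp at 0.19 were not called. Hspa9 lost its call under 7 of the 15 alternatives and Hsf2 under 5, with adjusted p up to 0.257 and 0.260, both in the fit with the B cell covariate.

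**Figure D4:**
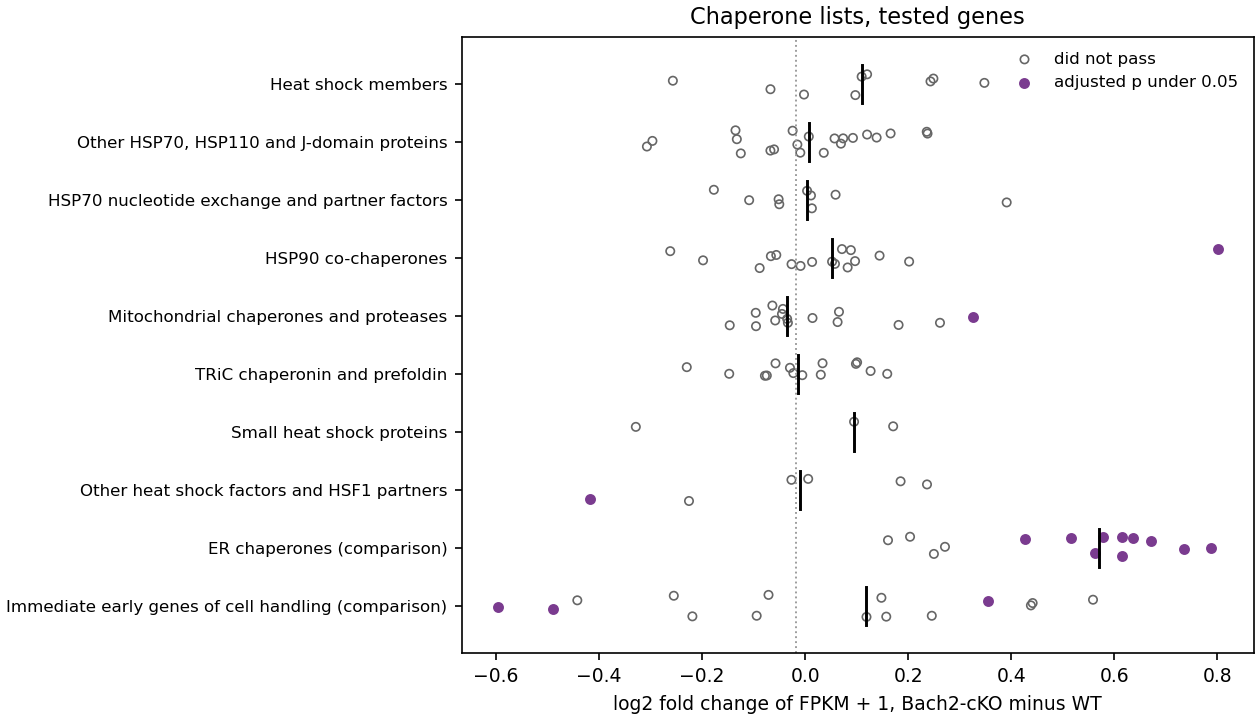
Log2 fold change of FPKM + 1, Bach2-cKO minus WT, for each tested gene of the 10 heat shock genes and 9 lists, with a black bar at each list's median and a dotted line at the median of all genes tested (-0.017). Filled points passed a limma adjusted p of 0.05. The ER chaperones lie to the right, at a median of 0.57, and the medians of the cytosolic and mitochondrial lists lie between -0.035 and 0.11.

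The chaperones of the endoplasmic reticulum (ER), which fold secreted and membrane proteins, gave another picture. Of 14 ER genes 10 were called higher and 0 lower, against 7.02% of all genes called higher, with a median log2 fold change of 0.57. Hspa5, the HSP70 of the ER, had 550.4, 567.2 and 455.7 FPKM in Bach2-cKO and 322.3, 343.2 and 384.9 FPKM in WT (log2 fold change 0.58, limma adjusted p = 0.0106). Hsp90b1, the HSP90 of the ER, had 302.7, 309.1 and 261.6 FPKM in Bach2-cKO and 174.6, 196.1 and 198.0 FPKM in WT (log2 fold change 0.61, limma adjusted p = 0.0038). Hyou1, the HSP110 of the ER, stood at 0.61 (adjusted p = 0.00623). Plasma cells are rich in these chaperones, and the summed plasma cell markers were 203.0 to 281.9 FPKM in Bach2-cKO and 101.2 to 119.2 FPKM in WT. Of the 6 markers 4 were called higher, Jchain, Mzb1, Derl3 and Prdm1, while Sdc1 stood at a log2 fold change of -0.054 and Tnfrsf17 was not tested. Sdc1 and Tnfrsf17 were named after their values were seen. RNA from a whole sorted population does not show which cells these marker transcripts came from. The part of plasma cells in the result was not tested. The 10 ER genes called became 0 in the fit with the B cell covariate, 5 with no filter on low values, 6 without Bach2-cKO replicate 1 or 2 or WT replicate 1 or 2, or with the replicate number as a block, and 12 without Bach2-cKO replicate 3.

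Within a library, each ER chaperone was set against the cytosolic one of its own family, a comparison free of library scaling and chosen after the values were seen. The Hspa5 to Hspa8 ratio was 0.428, 0.427 and 0.386 in Bach2-cKO and 0.286, 0.312 and 0.304 in WT, with no overlap (log2 difference 0.46). The Hsp90b1 to Hsp90ab1 ratio was 0.115, 0.118 and 0.109 in Bach2-cKO and 0.0846, 0.0918 and 0.0885 in WT (log2 difference 0.37). The Hyou1 to Hsph1 ratio was 1.55, 1.56 and 1.33 in Bach2-cKO and 1.03, 1.053 and 1.03 in WT (log2 difference 0.51). Each of these ER genes was therefore higher relative to its cytosolic relative in 3 of 3 Bach2-cKO libraries than in any WT library. The 3 ER genes were also without overlap on their own, as 35.6% of all genes tested were, so these ratios are no separate result. The Dnajb11 to Dnajb1 ratio overlapped, at 4.36, 3.94 and 2.98 in Bach2-cKO and 2.62, 2.64 and 3.003 in WT (log2 difference 0.43, exact two-sided permutation p = 0.2). For the mitochondrial relatives, the Hspa9 to Hspa8 ratio was higher in Bach2-cKO (log2 difference 0.21), and the Trap1 to Hsp90ab1 ratio, with Trap1 the mitochondrial HSP90, was lower (0.0377, 0.0362 and 0.0345 in Bach2-cKO, against 0.0432, 0.0456 and 0.0439 in WT, log2 difference -0.29). Trap1 itself overlapped between the groups, at 83.1 to 99.3 FPKM in Bach2-cKO and 89.3 to 98.3 FPKM in WT (log2 fold change -0.043, limma adjusted p = 0.757). All 5 ratios without overlap gave the smallest exact two-sided permutation p that 3 against 3 allows, 0.1, or 0.18 adjusted over the 9 ratios computed, so none could pass 0.05.

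**Figure D5:**
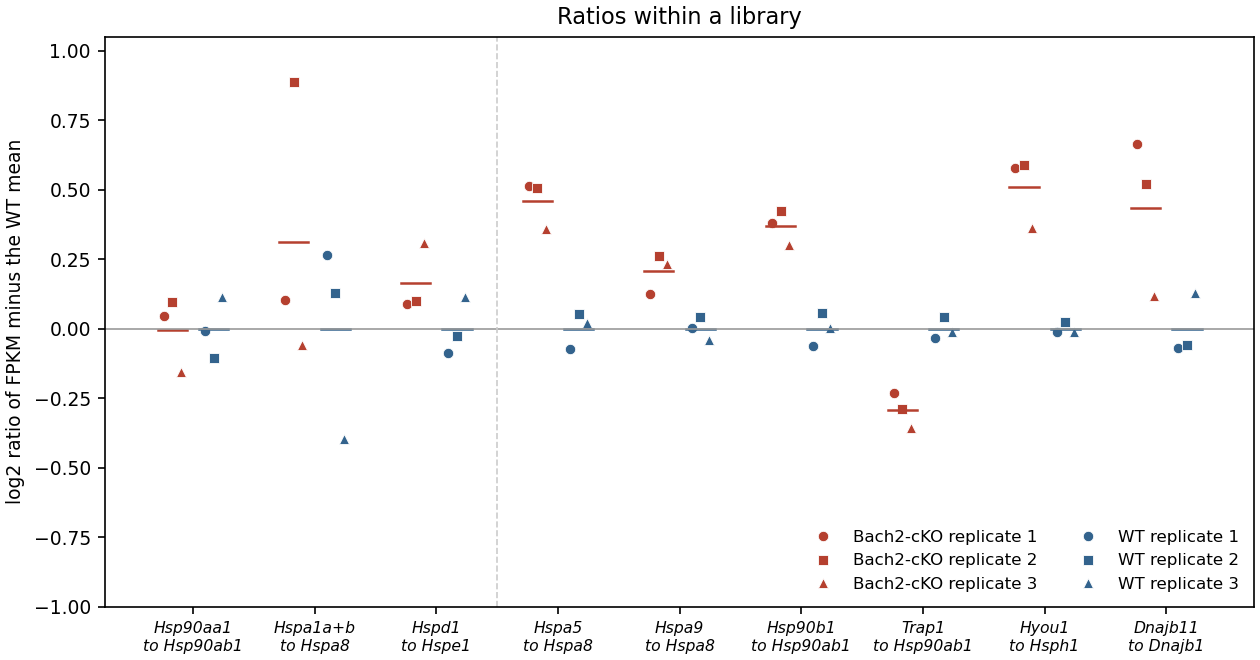
Log2 ratio of FPKM within each library minus the WT mean of that ratio, with Bach2-cKO in red to the left of WT in blue and bars at group means (n = 3). Left of the dashed line the ratios among the 10 genes overlap between groups. To the right, 5 of 6 ratios to ER or mitochondrial relatives do not overlap, 4 of them higher in Bach2-cKO and Trap1 to Hsp90ab1 lower. As single genes, 35.6% of all genes tested do not overlap between groups.

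Genes that respond to sorting and handling of cells, many of them also targets of T cell activation, were looked at beside the inducible heat shock genes. Of 15 immediate early genes, 3 were called, where 15.3% of all genes tested were, and 8 had an unadjusted p under 0.05 in limma, where 30.8% of all genes did. The list moved both ways, with 1 called higher, Jund at a log2 fold change of 0.35 (limma adjusted p = 0.0321), and 2 lower, Dusp1 at -0.49 (adjusted p = 0.0183) and Klf2 at -0.60 (adjusted p = 0.0376). Fitted log2 fold changes in this list ran from -0.60 to 0.56, against -0.26 to 0.35 for the 9 tested heat shock genes.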

How the data were processed

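Poly(A) RNA of 6 libraries was sequenced after TruSeq preparation, per the labels' protocols. Per the submitters' processing notes, HISAT2 2.0.5, featureCounts 1.5.0-p3 and the build mm9 were used, with settings not given in the sources used here. Values per gene were deposited as FPKM, in a table of the series and in 1 file per library, which hold the same values. Gene positions match GENCODE M21 (GRCm38) for 91.5% of the shared identifiers, and are given on that build. Whole reads were recovered from the FPKM steps for all 28530 genes above 0 (tolerance 0.001 reads), and 3 reads in a gene of 1 kb are worth 0.0684 to 0.108 FPKM. Depth sets the counting error only.

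The 13766 genes that reached 1 FPKM in 3 or more libraries entered a test on log2(FPKM + 1) with limma 3.58.1 (intensity trend, R 4.3.3), Bach2-cKO minus WT, two-sided, with no covariate and Benjamini-Hochberg adjustment over all of them, at a threshold of 0.05. Fold changes on this scale understate those of low genes. Ratios of FPKM were tested by exact permutation over samples. The genes, lists and tests were chosen with earlier results of these data known. Genes named beyond the 10 are up to 3 per list with the smallest p, those called, the 5 nearest in profile, and others said to be named after their values were seen. The test was checked on simulated data. Alternatives were median-ratio scaling, quantile normalization, a pseudocount of 0.1, no filter or one of 5 FPKM, limma-voom on recovered reads, a replicate block, the mean level of the B cell markers as covariate, a robust variance estimate and leaving out each library. Motifs were searched in RefSeq promoter windows, and figures drawn with Matplotlib 3.10.9 under Python 3.11.15.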

Additional observations from a re-analysis of the deposited data

How the results depend on the processing

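Of the 10 heat shock genes, 0 were called higher or lower with all libraries, and under 15 alternatives the counts were 0 or 1 in each direction. Higher, 1 gene was called by limma-voom on recovered reads (Hsp90ab1), 1 with a robust variance estimate (Hsp90ab1) and 0 to 1 with 1 library left out (Hsp90aa1 without Bach2-cKO replicate 3). Lower, 1 was called by limma-voom (Hsf1) and 0 with a library left out. Over all genes tested, 967 were higher and 1144 lower, and 1166 and 1348 by limma-voom. These became 501 and 681 with no filter, 625 and 657 with the replicate number as a block, 147 and 167 in the fit with the B cell covariate, and 485 to 1200 and 511 to 1378 with 1 library left out. The B cell markers ran partly with the groups, so the covariate fit cannot separate them from the group.

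The 3 calls in the other chaperone lists became 1 with the replicate block, 1 with the covariate and 1 to 7 with 1 library left out. The 10 ER chaperones called higher became 5 with no filter, 6 with the replicate block, 0 with the covariate and 6 to 12 with 1 library left out. For Dnajb1 the log2 fold change turned to 0.0228 with median-ratio scaling and ran from -0.0567 to 0.0450 with 1 library left out, for Hspe1 from -0.178 to 0.0985, and the log2 difference of the Hsp90aa1 to Hsp90ab1 ratio from -0.0585 to 0.0704. The cause of these moves was not tested. The deviations of same-numbered libraries from their group means had correlations of -0.053, 0.006 and -0.215. With only 3 libraries behind each group mean, these values cannot tell whether the replicate number pairs the samples. The other 7 tested heat shock genes kept their sign under each of these alternatives, with Hspa1b not fitted under the 5 FPKM filter. With 1 library left out their log2 fold changes ran from 0.0808 to 0.181 for Hspa8, 0.136 to 0.484 for Hspa1b, 0.176 to 0.360 for Hsp90aa1 and 0.0096 to 0.202 for Hspd1, and moved by less than 1.5 times for Hsp90ab1, Hsph1 and Hsf1. Counting depth limits Hspa1a, with as few as 36 reads in Bach2-cKO and 42 in WT.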
